A study of Homo sapiens with 6 samples.

Results

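The genes described are 10 negative feedback and ETS target genes of the ERK pathway. They are the phosphatases DUSP4, DUSP5 and DUSP6, the Sprouty genes SPRY1, SPRY2 and SPRY4, the Sprouty-related genes SPRED1 and SPRED2, and the ETS transcription factors ETV4 and ETV5. They were chosen by name, as known targets of ERK, with earlier results of these data known. All 10 had a row among the 26902 gene symbols of the deposited table. RNA came from 3 libraries of HMCB cells given an siRNA against AHCYL1 (siAHCYL1) and from 3 libraries given a control siRNA (siNC). HMCB is a human melanoma cell line whose genotype is labelled Nras Q61K, so every library of either group carries that oncogenic allele, and RNA was taken 3 days after transfection. AHCYL1, also named IRBIT, is known to restrain IP3 receptors, through which the endoplasmic reticulum releases calcium, and the stated aim of the series was to learn by what route it drives growth of melanoma cells with mutant NRAS. The labels name 1 cell line and 1 control siRNA, and they call the replicates biological without saying that they were separate cultures, so p-values measure the spread between these libraries, which may be technical.

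RAS passes growth factor signals through RAF and MEK to the kinase ERK. Active ERK switches on the genes that hold it back: dual-specificity phosphatases (DUSPs) remove phosphate from ERK and related kinases, and Sprouty and SPRED proteins act upstream, at receptor adaptors and at RAS. ERK also raises the PEA3 group of ETS factors (ETV1, ETV4 and ETV5), in part by relieving repression by capicua (CIC). In melanoma cells with RAS or RAF mutations the RNA of these genes is widely used as a readout of ERK output.

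The values are TPM, relative transcript abundances that are divided by transcript length and scaled to the same total in each library, so that levels can be set side by side between genes. They keep no sequencing depth, and the depth behind each value is unknown. Between 13035 and 13189 genes reached 1 TPM in a library. The targeted gene, AHCYL1 (GRCh38 chromosome 1, from 109984686 to 110023741), was measured at 13.45, 11.13 and 10.97 TPM in the siAHCYL1 libraries, against 150.02, 134.05 and 131.09 TPM in the siNC libraries, or 8.56% of the siNC mean (exact permutation p = 0.1, two-sided, the smallest that 3 against 3 allows). SOX10, a defining melanocytic transcription factor, had a mean of 1009 ± 16.9 TPM in siAHCYL1 and 1037 ± 12.3 TPM in siNC (SD, n = 3), whereas TYR was listed at 0 in every library and MLANA was below 1 TPM throughout. The 7 melanocytic markers summed to between 1033 and 1073 TPM in siAHCYL1 and between 1059 and 1084 TPM in siNC, nearly all of it SOX10, and the others moved in different directions. DCT, an enzyme of melanin synthesis, fell to 0.337 ± 0.25 TPM in siAHCYL1, against 11.41 ± 0.58 TPM in siNC (SD, n = 3, log2 fold change -3.23, limma adjusted p = 1.14e-06). All siAHCYL1 values of DCT were below 1 TPM, so it was tested only because of its siNC values. S100B, a calcium-binding protein, rose to 28.98 ± 3.11 TPM in siAHCYL1, against 10.7 ± 0.58 TPM in siNC (SD, n = 3, 1.35, limma adjusted p = 9.74e-06). PMEL, low throughout, rose (0.64, limma adjusted p = 0.0484), a call lost in 9 of 14 alternative fits, among them each fit without 1 siAHCYL1 library and those without siNC replicate 2 or siNC replicate 3. MITF did not pass (-0.16, limma adjusted p = 0.342). The 3 fibroblast markers summed to between 26.1 and 32.4 TPM in siAHCYL1 and between 15.3 and 17.9 TPM in siNC, mostly LUM, which rose (1.00, limma adjusted p = 8.82e-05), with DCN listed at 0 in all siAHCYL1 libraries. COL1A1 went the other way, at 0.493 ± 0.25 TPM in siAHCYL1 and 2.18 ± 0.47 TPM in siNC (SD, n = 3, -1.09, limma adjusted p = 0.00191). It too was below 1 TPM in all siAHCYL1 libraries and was tested only because of its siNC values. The 3 immune markers summed to between 7.67 and 11.4 TPM in siAHCYL1 and between 3.60 and 4.38 TPM in siNC, mostly PTPRC, with CD3E listed at 0 in every library. The keratinocyte and endothelial markers summed to at most 2.07 TPM in any library, and the part of other cell types in the results was not tested. In the second principal component (9.78% of the variance) replicate 1 of each group stood apart, at 17.6 in siAHCYL1 and 15.0 in siNC, with the other 4 libraries between -14.5 and -1.23. With replicate 1 of both groups left out, the 10 genes again split into 1 higher and 6 lower.

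In siAHCYL1 cells 6 of the 10 genes fell and 1 rose. DUSP4, DUSP6, SPRY1, SPRED2, ETV4 and ETV5 fell, DUSP5 rose, and SPRY2, SPRY4 and SPRED1 did not pass the test. The threshold was an adjusted p of 0.05 in limma's moderated test on log2(TPM + 1), two-sided. Adjustment was by Benjamini-Hochberg over the 13266 genes that reached 1 TPM in 3 or more libraries. All 10 genes passed that filter, with no gene of the 10 below 6.81 TPM in any library. Over all genes tested 51.6% changed, 30.4% higher and 21.2% lower, so the count of 7 in 10 has to be read against a background in which change was common. The median log2 fold change was -0.44 over the 10 genes and 0.06 over all genes tested. Of all calls 58.9% were higher, and 48.1% were higher under quantile normalization, while the split of the 10 genes was 1 higher and 6 lower under either scaling alternative. The groups did not overlap in 7 of the 10 genes, the same 7 that changed, and in 59.2% of all genes tested. Summed over the 10 genes, RNA was at 387 ± 21.7 TPM in siAHCYL1 and 555 ± 8.99 TPM in siNC (SD, n = 3), or 69.8% of the siNC level. The most abundant genes weigh most in this sum. DUSP4 and ETV5 held 24.1% and 23.0% of it in siNC, and 16.3% and 18.3% in siAHCYL1. DUSP5, SPRY2 and SPRY4 had higher means in siAHCYL1 than in siNC. In bulk RNA, fewer cells with high levels and less RNA per cell cannot be told apart.

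**Figure D1:**
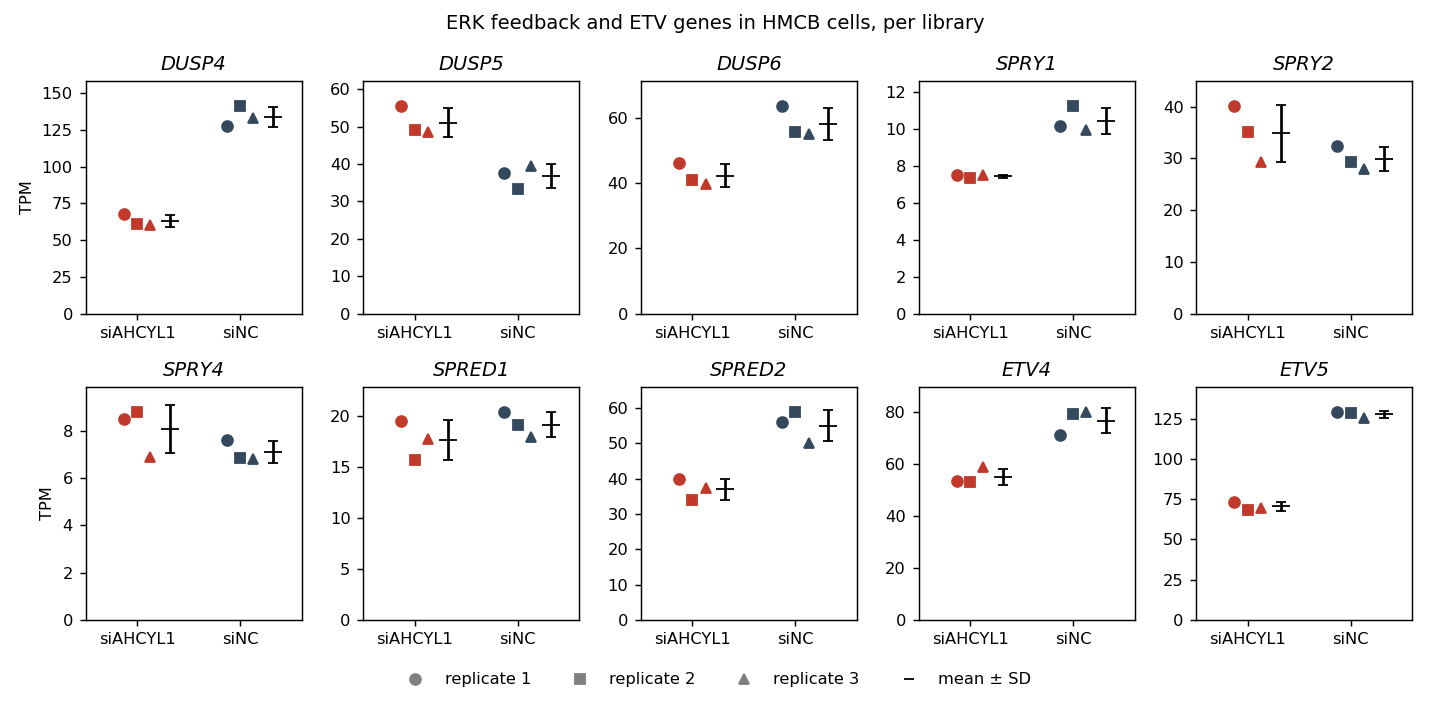
TPM of each of the 10 genes in the 3 siAHCYL1 libraries (red, left) and the 3 siNC libraries (dark blue, right), with a marker shape per replicate and the mean ± SD beside them; every axis starts at 0. DUSP4, DUSP6, SPRY1, SPRED2, ETV4 and ETV5 lie lower in siAHCYL1 without overlap, DUSP5 lies higher without overlap, and SPRY2, SPRY4 and SPRED1 overlap.

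Among the 3 phosphatases described, DUSP4 fell most. It is also called MKP-2, a nuclear phosphatase of ERK and JNK (chromosome 8, positions 29333064 to 29350668 of GRCh38). DUSP4 had 68.04, 61.09 and 60.5 TPM in siAHCYL1, against 127.84, 141.31 and 132.91 TPM in siNC. Every siAHCYL1 library lay below every siNC library, and the gap between the groups was far wider than the spread within either. The mean was 63.2 ± 4.19 TPM in siAHCYL1 and 134.0 ± 6.80 TPM in siNC (SD, n = 3), 2.12-fold lower (log2 fold change -1.07, SE 0.073, limma adjusted p = 5.07e-06). Of all genes tested, 2.94% had a log2 fold change as low or lower.

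DUSP6, or MKP-3, is the cytoplasmic phosphatase that acts on ERK in particular (chromosome 12, positions 89347232 to 89353271). It had 46.19, 40.81 and 39.78 TPM in siAHCYL1, against 63.54, 55.67 and 54.82 TPM in siNC. Replicate 1 was the highest siAHCYL1 library in 8 of the 10 genes and the highest siNC library in 5 of them. For DUSP6 it was the highest in each group, and the groups did not overlap. The mean fell to 42.3 ± 3.44 TPM in siAHCYL1, against 58.0 ± 4.81 TPM in siNC (SD, n = 3), or 72.8% (log2 fold change -0.45, SE 0.089, limma adjusted p = 0.00248).

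The promoter of DUSP6 is shown because it holds the letters that capicua is known to bind. RefSeq promoter windows, from 250 bases before to 50 bases after a gene's start on GRCh38.p14, were given for 6 of the 10 genes, 10 windows in all. Capicua's octamer was searched as TGAATGAA, TGAATGGA, TCAATGAA or TCAATGGA on both strands. The DUSP6 window held it 2 times, on the strand opposite to the gene. Along the gene, the first began 24 bases before the RefSeq start and the second just after it. The window lies inside the gene span given above, whose GENCODE start is further upstream. At least 1 octamer was found in 3.77% of all 35116 windows and at least 2 in 0.327%, and the windows of SPRY1, SPRY2, SPRY4, SPRED1 and SPRED2 held none. The stretch around them lies at chr12:89352473-89352545 on the minus strand and is written 5′ to 3′ along the gene, with the octamers, read here as their reverse complement, in capitals.
DUSP6: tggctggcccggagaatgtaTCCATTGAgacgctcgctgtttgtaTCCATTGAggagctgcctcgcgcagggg
The AP-1 letters TGANTCA occurred 2 times in 1 of 2 SPRED2 windows and in 7.71% of all windows, and the ETS letters CCGGAAG 1 time in 1 of 2 SPRY1 windows and in 10.3% of all windows. The cyclic AMP response element TGACGTCA was in none of the 10 windows and in 1.85% of all. These matches describe the letters in these windows and no binding was measured.

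DUSP5, a nuclear phosphatase that acts on ERK in particular and is itself an ERK target, went the other way (chromosome 10, positions 110497838 to 110511544). DUSP5 had 55.52, 49.08 and 48.52 TPM in siAHCYL1, against 37.67, 33.36 and 39.38 TPM in siNC. All siAHCYL1 libraries were above all siNC libraries, so the 3 phosphatases did not move together. The mean was 51.0 ± 3.89 TPM in siAHCYL1 and 36.8 ± 3.10 TPM in siNC (SD, n = 3), 1.39-fold higher (log2 fold change 0.46, SE 0.090, limma adjusted p = 0.00224). Its pseudogene DUSP5P1 had between 1.19 and 1.57 TPM in siAHCYL1 and between 1.91 and 2.50 TPM in siNC, a level far below that of DUSP5.

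Among the 3 phosphatases the balance of RNA differed between the groups, and their sum was 156.5 ± 11.5 TPM in siAHCYL1 and 229 ± 1.63 TPM in siNC (SD, n = 3). The ratio of DUSP4 to DUSP5 was 1.24 ± 0.012 in siAHCYL1 and 3.67 ± 0.49 in siNC, and the ratio of DUSP5 to DUSP6 was 1.21 ± 0.010 in siAHCYL1 and 0.637 ± 0.071 in siNC (SD, n = 3). DUSP4 made up 40.4% of their summed TPM in siAHCYL1 and 58.6% in siNC, while DUSP5 made up 32.6% in siAHCYL1 and 16.1% in siNC. Within the 4 families 8 such ratios were compared. In 7 of them the groups did not overlap (exact permutation p = 0.1 each, two-sided, the smallest possible, 0.114 after Benjamini-Hochberg adjustment over the 8). The exception was SPRY2 to SPRY4, at 4.32 ± 0.37 in siAHCYL1 and 4.22 ± 0.11 in siNC (SD, n = 3 each, exact permutation p = 0.9). The ratios are built from the same values as the calls of single genes. Of all genes tested 59.2% did not overlap between the groups, and no share over other gene pairs was computed.

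The 7 other MAPK phosphatases that were measured also split, with 4 lower, 1 higher and 2 that did not pass (median log2 fold change -0.32, against 0.06 over all genes tested). Among all genes tested 21.2% were lower and 30.4% higher. DUSP9, a cytoplasmic phosphatase of ERK like DUSP6, fell to 4.64 ± 0.74 TPM in siAHCYL1, against 16.1 ± 0.29 TPM in siNC (SD, n = 3, log2 fold change -1.61, limma adjusted p = 1.04e-05). DUSP10, which acts on JNK and p38, fell to 3.23 ± 0.37 TPM in siAHCYL1, against 10.03 ± 0.43 TPM in siNC (-1.39, limma adjusted p = 2.27e-05). The nuclear and immediate early DUSP1 fell (-0.51), as did DUSP16 (-0.32), a phosphatase of JNK and p38. DUSP2, a nuclear phosphatase of ERK and p38, rose to 62.7 ± 6.71 TPM in siAHCYL1, against 39.6 ± 0.88 TPM in siNC (SD, n = 3, 0.64, limma adjusted p = 0.000300). DUSP7 (-0.17) and DUSP8 (-0.05) did not pass. Over all 10 phosphatases RNA summed to 321 ± 5.85 TPM in siAHCYL1 and 415 ± 2.94 TPM in siNC. DUSP2 held 19.6% of that sum in siAHCYL1 and 9.55% in siNC.

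**Figure D2:**
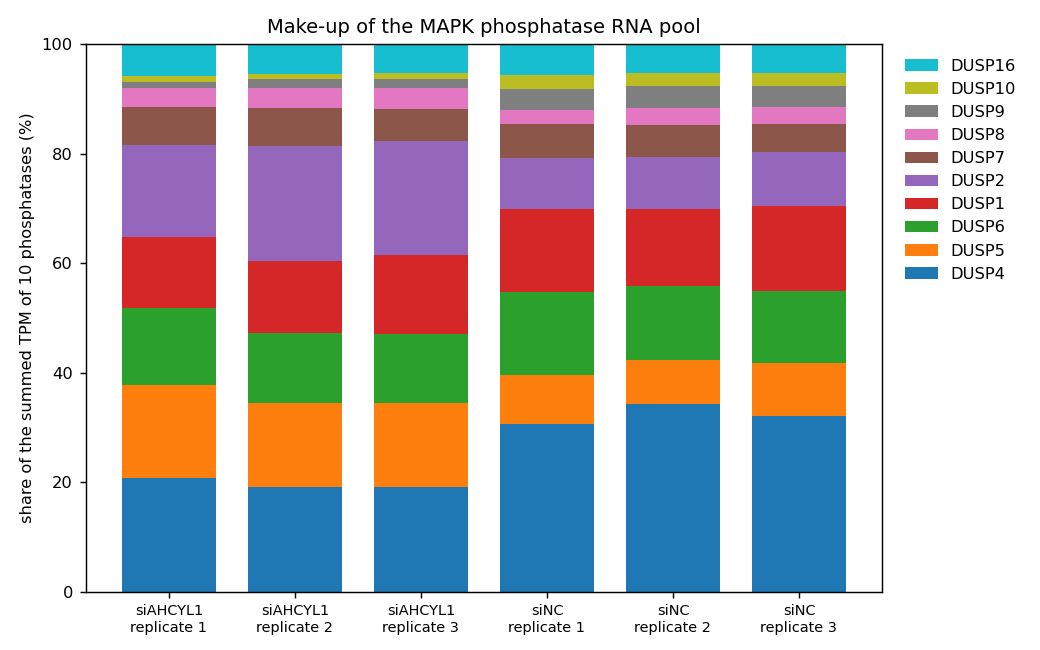
Share (%) that each of 10 MAPK phosphatases holds in their summed TPM, as stacked bars for the 3 siAHCYL1 libraries (left) and the 3 siNC libraries (right). DUSP4, at the bottom, holds 19.7% in siAHCYL1 and 32.3% in siNC on average, while DUSP5 holds 15.9% in siAHCYL1 and 8.87% in siNC.

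Sprouty proteins sit below receptor tyrosine kinases and interfere with adaptors and RAF on the way to ERK. Of the 3 genes described, SPRY1 fell and the others did not pass. SPRY1 (chromosome 4, positions 123396795 to 123403760) had 7.49, 7.33 and 7.47 TPM in siAHCYL1, against 10.13, 11.22 and 9.9 TPM in siNC. Its siAHCYL1 libraries lay closer together than its siNC libraries, and all were below the lowest siNC library. The mean was 7.43 ± 0.087 TPM in siAHCYL1 and 10.4 ± 0.71 TPM in siNC (SD, n = 3, log2 fold change -0.44, SE 0.10, limma adjusted p = 0.00695).

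SPRY2 (chromosome 13, positions 80335976 to 80340951), whose protein also binds the ubiquitin ligase CBL, had 40.15, 35.18 and 29.26 TPM in siAHCYL1, against 32.46, 29.37 and 27.93 TPM in siNC. The lowest siAHCYL1 library lay among the siNC libraries, and replicate 1 was the highest library of each group. SPRY2 averaged 34.9 ± 5.45 TPM in siAHCYL1 and 29.9 ± 2.31 TPM in siNC (SD, n = 3), and its log2 fold change of 0.21 had a 95% interval from -0.06 to 0.47 (limma adjusted p = 0.171). It passed without siAHCYL1 replicate 3 (0.32, limma adjusted p = 0.0365). SPRY4 (chromosome 5, positions 142310427 to 142326455) had 8.5, 8.79 and 6.91 TPM in siAHCYL1, against 7.62, 6.83 and 6.81 TPM in siNC. Replicate 3 of siAHCYL1 overlapped the siNC libraries, and the log2 fold change of 0.16 had a 95% interval from -0.12 to 0.44 (limma adjusted p = 0.311). SPRY3, the fourth gene of the family, was low, at 1.74 ± 0.33 TPM in siAHCYL1 and 1.34 ± 0.12 TPM in siNC (SD, n = 3), and did not pass (0.22, limma adjusted p = 0.299).

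SPRED proteins bring neurofibromin, the product of NF1, to the membrane, where it switches RAS off. SPRED2 fell and SPRED1 did not pass. SPRED2 (chromosome 2, positions 65310851 to 65432637) had 39.95, 33.9 and 37.24 TPM in siAHCYL1, against 56.05, 58.89 and 50.21 TPM in siNC. No siAHCYL1 library reached the lowest siNC value, and the mean was 37.0 ± 3.03 TPM in siAHCYL1 and 55.1 ± 4.43 TPM in siNC (SD, n = 3), or 67.3% (log2 fold change -0.56, SE 0.090, limma adjusted p = 0.000775). SPRED1 (chromosome 15, positions 38252326 to 38357249) had 19.59, 15.7 and 17.82 TPM in siAHCYL1, against 20.43, 19.17 and 17.95 TPM in siNC. The groups overlapped, and its log2 fold change of -0.11 had a 95% interval from -0.35 to 0.12 (limma adjusted p = 0.393). The ratio of SPRED1 to SPRED2 was 0.477 ± 0.014 in siAHCYL1 and 0.349 ± 0.021 in siNC (SD, n = 3), without overlap. SPRED3, the least abundant of the family, fell to 1.91 ± 0.31 TPM in siAHCYL1, against 5.01 ± 0.80 TPM in siNC (SD, n = 3, log2 fold change -1.04, limma adjusted p = 0.000598). 

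Both ETS factors fell, and they had the largest fall of the 4 families when summed, at 126 ± 3.56 TPM in siAHCYL1 and 204 ± 3.73 TPM in siNC (SD, n = 3), or 61.5%. ETV5 (chromosome 3, positions 186046308 to 186110318), a transcriptional activator induced by ERK, had 73.57, 68.56 and 69.78 TPM in siAHCYL1, against 129.28, 128.52 and 125.66 TPM in siNC. The libraries of each group lay close together and the groups were far apart. ETV5 averaged 70.6 ± 2.61 TPM in siAHCYL1 and 127.8 ± 1.91 TPM in siNC (SD, n = 3), 1.81-fold lower (log2 fold change -0.85, SE 0.061, limma adjusted p = 7.29e-06), and 4.94% of tested genes had a log2 fold change as low or lower. ETV4, its close relative (chromosome 17, positions 43527844 to 43579620), had 53.3, 53.07 and 58.64 TPM in siAHCYL1, against 70.98, 78.96 and 79.85 TPM in siNC. Here too no library overlapped the other group, but the fall was smaller, to 71.8% of the siNC mean (log2 fold change -0.47, SE 0.077, limma adjusted p = 0.000830). ETV1, the remaining PEA3 factor, fell to 62.4 ± 4.53 TPM in siAHCYL1, against 82.3 ± 1.92 TPM in siNC (SD, n = 3, -0.40, limma adjusted p = 0.00161), so all 3 PEA3 factors were lower. The ratio of ETV4 to ETV5 was 0.780 ± 0.058 in siAHCYL1 and 0.600 ± 0.045 in siNC (SD, n = 3), without overlap. ETV5 held 37.6% of the summed TPM of the 3 PEA3 factors in siAHCYL1 and 44.6% in siNC.

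The libraries do not keep the strand, so reads from a stretch shared by genes on opposite strands cannot be told apart by strand. Overlap was taken over whole gene spans, and shared exons were not looked for. ETV4 overlaps DHX8, which runs on the opposite strand and had between 48.9 and 53.3 TPM in siAHCYL1 and between 47.1 and 55.5 TPM in siNC (log2 fold change -0.05, limma adjusted p = 0.674). ETV5 overlaps DGKG on the same strand, which had at most 3.69 TPM in any library. DUSP6, SPRY4 and ETV5 also overlap antisense genes that were not analysed here.

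The 3′ UTR of ETV5 is shown for a 7-letter run, GTATGCA, that was picked with earlier results of these data known. Among the longest annotated 3′ UTRs (GENCODE v29, GRCh38) of the 10 genes, that of ETV5 held it and the other 9 did not. The site lies at chr3:186046369-186046398 on the minus strand, with the run in capitals.
ETV5: tgcgcagggccGTATGCAtcctgccaagct
Of 11974 tested genes with a 3′ UTR, 8.85% held the run, and 38.0% of these fell, against 20.9% of the others. The run was picked with earlier results of these data known and UTR length was not matched, so this contrast is no independent test. The part of the run in the fall of ETV5 was not tested.

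**Figure D3:**
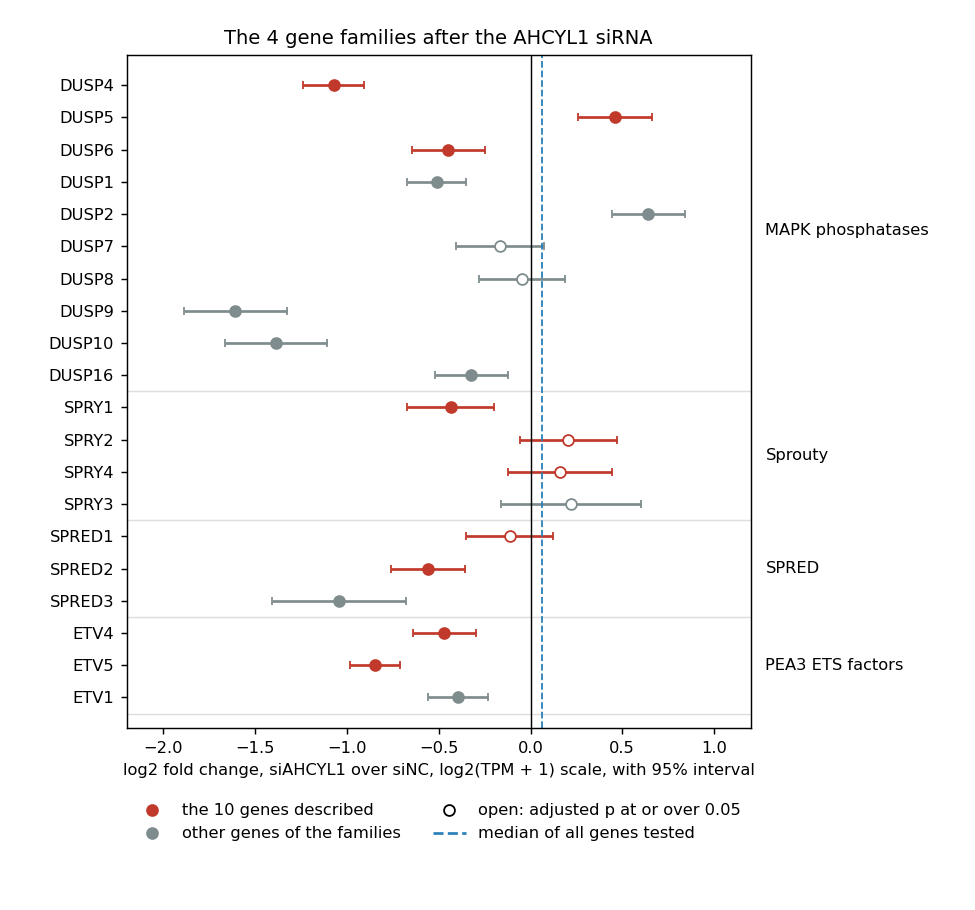
Log2 fold change of siAHCYL1 over siNC on the log2(TPM + 1) scale, with its 95% interval, for the 10 genes described (red) and the other genes of their 4 families (grey); open circles did not pass. The 3 PEA3 factors lie left of 0 with ETV5 lowest at -0.85, while the phosphatases run from DUSP9 at -1.61 to DUSP2 at 0.64, on either side of the median of all genes (dashed, 0.06).

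The order of RNA levels among the 10 genes differed between the groups. In siAHCYL1 ETV5 was the highest (70.6 TPM), then DUSP4 (63.2 TPM), ETV4 (55.0 TPM), DUSP5 (51.0 TPM), DUSP6 (42.3 TPM), SPRED2 (37.0 TPM), SPRY2 (34.9 TPM), SPRED1 (17.7 TPM), SPRY4 (8.07 TPM) and SPRY1 (7.43 TPM). In siNC DUSP4 (134.0 TPM) and ETV5 (127.8 TPM) led, then ETV4 (76.6 TPM), DUSP6 (58.0 TPM), SPRED2 (55.1 TPM), DUSP5 (36.8 TPM), SPRY2 (29.9 TPM), SPRED1 (19.2 TPM), SPRY1 (10.4 TPM) and SPRY4 (7.09 TPM). Neighbours whose library values overlapped were, in siAHCYL1, ETV4 and DUSP5, DUSP6 and SPRED2, SPRED2 and SPRY2, and SPRY4 and SPRY1, and in siNC DUSP4 and ETV5, and DUSP6 and SPRED2. DUSP5 moved above DUSP6 in siAHCYL1 and lay below it in siNC.

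The genes most like DUSP4 across the 6 libraries, among tested genes with a mean of at least 5 TPM, were AKAP12, PTK7 and LRP4. Likeness was the root mean square difference of log2(TPM + 1), each gene centred on its siNC mean, and came to 0.031, 0.043 and 0.055 log2 units. AKAP12, a kinase scaffold, had 23.82, 22.32 and 21.02 TPM in siAHCYL1, against 46.07, 52.73 and 47.27 TPM in siNC. Its highest siNC value was in replicate 2, as for DUSP4, while that of PTK7 was in replicate 3 and that of LRP4 in replicate 1. Near ETV5 were C1R (0.030) and KLF3 (0.036), with log2 fold changes of -0.83 and -0.85. The search picks genes with a like fold change, so the likeness is no independent result.

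Around these genes, other ERK-induced genes moved in both directions. Of 18 tested, 7 rose and 4 fell (median log2 fold change 0.05, and -0.01 under median-of-ratios scaling). Over all genes tested 30.4% rose and 21.2% fell, so these counts lie near the background. CXCL8, a chemokine, rose to 14.2 ± 0.83 TPM in siAHCYL1, against 1.21 ± 0.47 TPM in siNC (SD, n = 3, 2.80, limma adjusted p = 2.47e-06). The early growth response factor EGR1 was at 22.9 ± 1.43 TPM in siAHCYL1 and 6.37 ± 1.99 TPM in siNC (1.73), and EGR3 also rose (1.53). The EGF receptor ligand HBEGF fell to 4.51 ± 0.58 TPM in siAHCYL1, against 22.2 ± 1.67 TPM in siNC (SD, n = 3, -2.08, limma adjusted p = 1.99e-06), and LIF (-0.37) and IER3 (-0.37) fell. EGR1 and EGR3 thus rose in the libraries in which 6 of the 10 feedback and ETV genes fell.

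Of the capicua complex, which represses PEA3 genes, ATXN1 and ATXN1L rose and CIC did not pass. ATXN1 had 11.04 ± 0.47 TPM in siAHCYL1 and 6.13 ± 0.96 TPM in siNC (SD, n = 3, log2 fold change 0.76, limma adjusted p = 0.000924). ATXN1L had 24.0 ± 0.43 TPM in siAHCYL1 and 18.6 ± 0.78 TPM in siNC (0.36, limma adjusted p = 0.00553), and CIC had 31.6 ± 1.48 TPM in siAHCYL1 and 28.6 ± 0.70 TPM in siNC (0.14, limma adjusted p = 0.164). Of 14 other ETS factors tested, ETV1 among them, 4 fell and 1 rose (median -0.09), and with no filter on low values 3 fell and 0 rose. The shares over all genes tested were 21.2% lower and 30.4% higher. ELK3 (-0.64) and FLI1 (-0.58) fell with ETV1, and ELK4 rose (0.39, limma adjusted p = 0.0346), a call that was lost in 6 of 14 alternative fits, among them those without siAHCYL1 replicate 1, siAHCYL1 replicate 2, siNC replicate 1 or siNC replicate 3.

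Upstream of these genes, of 17 RAS, RAF, MEK and ERK core genes, 6 rose and 1 fell (median 0.13). For comparison, 30.4% of all genes tested rose and 21.2% fell. Under quantile normalization 3 of the 17 rose and 2 fell. NRAS had 118 ± 8.97 TPM in siAHCYL1 and 90.0 ± 10.1 TPM in siNC (SD, n = 3, log2 fold change 0.39, limma adjusted p = 0.00626). SOS1, a RAS activator, rose (0.48, limma adjusted p = 0.0132) and HRAS fell (-0.34, limma adjusted p = 0.0367). These counts rested on the filter and on single libraries. With no filter on low values 0 of the 17 passed. Among fits that left out a library, 2 rose without siNC replicate 3, 3 rose without siNC replicate 2 or siAHCYL1 replicate 1, and 4 rose without siAHCYL1 replicate 2, with 0 lower in each of these. These are RNA levels, and ERK phosphorylation was not measured in the files used here.

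Other brakes on the pathway went both ways, with 5 of 15 higher and 4 lower (median -0.01), against 51.6% of all genes tested that changed in either direction. Without siAHCYL1 replicate 2, and also with no filter on low values, 4 were higher and 2 lower. RASA3, a RAS GTPase-activating protein, rose to 91.2 ± 1.61 TPM in siAHCYL1, against 46.7 ± 1.04 TPM in siNC (SD, n = 3, 0.95, limma adjusted p = 4.48e-06). RASAL2 (0.69), of the same protein class, and ERRFI1 (0.37), an inhibitor of the EGF receptor, rose. DAB2IP (-0.64), a further RAS GTPase-activating protein, LRIG1 (-0.94), which restrains ErbB receptors, and the ubiquitin ligase CBLB (-0.45) fell, the last losing its call without siAHCYL1 replicate 2. Of 11 protein partners and ubiquitin ligases of the Sprouty, SPRED and ETV proteins, 4 rose and 1 fell. By comparison, 30.4% of all genes tested were higher and 21.2% lower. CBL and NF1 are in this list and among the 15 brakes, so the rise of CBL (0.25, limma adjusted p = 0.0351) counts in both. That call was lost in 9 of 14 alternative fits. Under median-of-ratios scaling or quantile normalization 2 of the 11 rose and 2 fell, while 2 rose and 1 fell without siNC replicate 3. TESK1 (0.79), a kinase that binds Sprouty proteins, SIAH2 (0.61), a ubiquitin ligase of SPRY2, and COP1 (0.25, limma adjusted p = 0.0208), the ligase of ETV proteins, rose, the last losing its call under either of those scalings and without siAHCYL1 replicate 3 or siNC replicate 3. CAV1, caveolin 1, fell to 0.65 ± 0.21 TPM in siAHCYL1, against 2.64 ± 0.32 TPM in siNC (SD, n = 3, -1.14). All siAHCYL1 values of CAV1 were below 1 TPM, so it was tested only because of its siNC values. With the filter at 5 TPM, 4 of the 9 partner and ligase genes still tested rose and 0 fell.

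**Figure D4:**
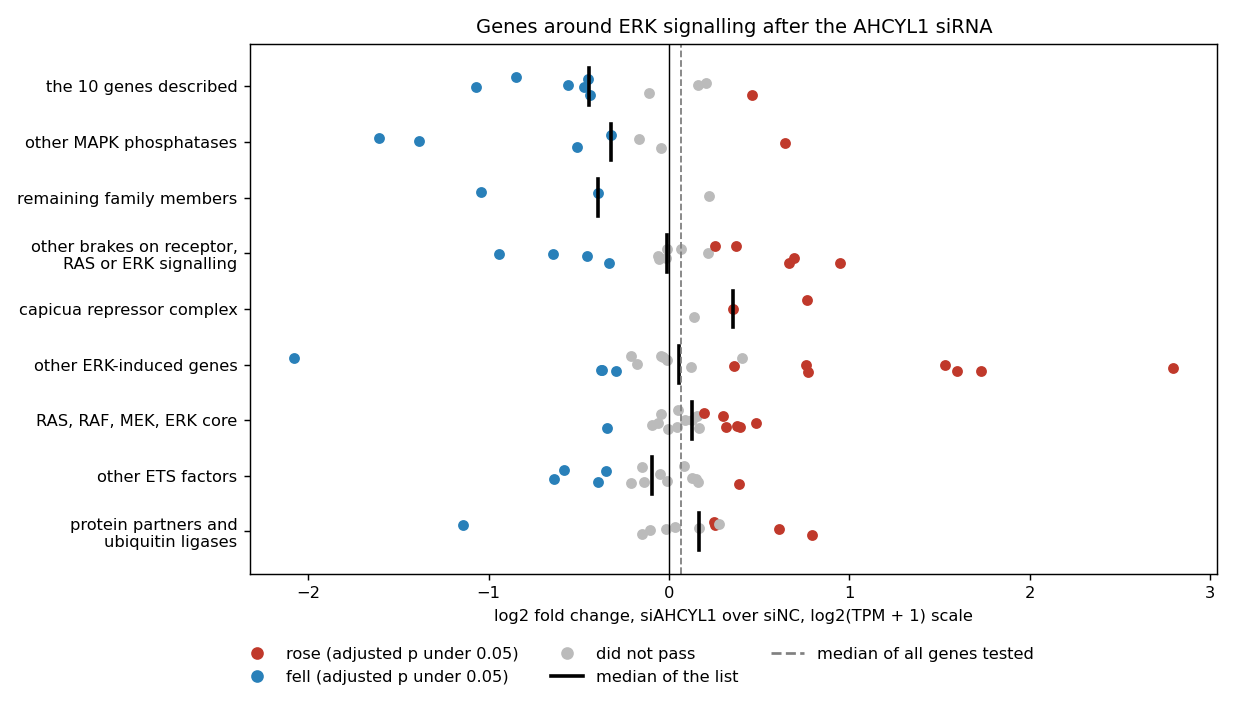
Log2 fold change of siAHCYL1 over siNC on the log2(TPM + 1) scale, 1 point per tested gene (vertical scatter within a row has no meaning), for the 10 genes described and 8 lists around ERK signalling; black bars are list medians and the dashed line is the median of all genes tested (0.06). The 10 genes have a median of -0.44 and the RAS, RAF, MEK and ERK core 0.13, while the other ERK-induced genes run from HBEGF at -2.08 to CXCL8 at 2.80.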

How the data were processed

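RNA-seq of 6 HMCB libraries was used. The authors deposited 1 table of TPM per gene symbol. The submitters' processing notes name the GRCh38 build with RSEM and STAR. Version numbers and annotation were not given in the sources used here. Per the labels' protocols the libraries were non-directional. Columns were assigned by prefix (nc for siNC, si for the only other group) and replicate number.

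log2(TPM + 1) was fitted with limma 3.58.1 in R 4.3.3 (group only, intensity trend, two-sided, Benjamini-Hochberg over all 13266 genes reaching 1 TPM in 3 or more libraries). Fold changes on this scale understate changes of low genes. The fit was tested on simulated data. COP1 was matched through its synonym RFWD2. Gene coordinates are from GENCODE v29 and promoter sequences from RefSeq (GRCh38.p14). Depth is unknown, so no counting interval was computed.

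The genes, lists, the 7-letter run and the tests were chosen with earlier results of these data known. Named from each list were up to 3 changed genes per direction with the smallest adjusted p, and every gene of lists of at most 7. The motifs, overlapping genes, the pseudogene and the values of CBL were added later. Some genes that this rule names are not reported here. Alternatives are given in the closing section.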

Additional observations from a re-analysis of the deposited data

How the results depend on the processing

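Alternative fits used quantile normalization, median-of-ratios scaling, a filter at 5 TPM or none, a pseudocount of 0.1, the replicate block, no trend with robust moderation, each library left out in turn, and replicate 1 of both groups left out. Through all 14, DUSP4, DUSP5, DUSP6, SPRY1, SPRED2, ETV4 and ETV5 stayed past the threshold in the same direction, and no gene of the 10 changed sign. DUSP4 ranged from -1.16 to -1.03, ETV5 from -0.94 to -0.83 and DUSP5 from 0.36 to 0.51 (log2 fold change). SPRY4 and SPRED1 passed in none, with the lowest adjusted p at 0.144 and 0.0720 (limma). SPRY2 passed in 2, with the replicate block (0.21, limma adjusted p = 0.0392) and without siAHCYL1 replicate 3 (0.32, limma adjusted p = 0.0365); the cause was not tested. With 1 library left out, 7 or 8 of the 10 genes changed, and between 5672 and 6799 of all genes, against 6844 with all libraries. Correlations between the deviations of same-numbered libraries were 0.233, 0.00092 and 0.154, so the numbers were not taken to pair the samples (siAHCYL1 replicate 2 was closest to siNC replicate 3). With the replicate block 8 of the 10 genes and 7919 of all genes changed. What sequencing depth limits could not be set, since TPM keeps no depth.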
